A study of Bos taurus
Mus musculus with 10 samples.

Results

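The genes described here are 33 cell cycle genes of cattle and the 20 mouse genes that carry the same names, followed in co-cultures of dividing bovine embryonic stem cells and division-arrested mouse feeder cells. They were chosen by name, from genes known to be expressed in dividing cells, with earlier results of these data known but with no measured value in the rule: 33 of 27590 gene IDs of the bovine table by symbol, and 20 of 31349 gene IDs of the mouse table by their gene ID. All 33 and all 20 were found and passed the filter on low values. The list holds a proliferation marker, cyclins and CDK1, a pair of transcription factors, the replicative helicase and its loader, enzymes of DNA synthesis, and the kinases, checkpoint proteins and motors of mitosis. The mouse set lacks E-type cyclins, CCNB2, E2F1, FOXM1, CDC6, RRM1, BUB1B and the centromere and spindle genes.

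A dividing cell copies its DNA in S phase and separates the copies in mitosis. E2F factors activate the genes of the G1/S transition, such as cyclin E, the MCM helicase and the enzymes that make nucleotides, while FOXM1 and its partners activate those of G2 and mitosis, such as cyclin B, Aurora kinases and survivin, so that transcripts of both groups are abundant in cycling cells and scarce in resting ones. Embryonic stem cells cycle fast, with a short G1 phase. Mitomycin C crosslinks DNA and is used on feeder fibroblasts so that they stay alive and support the stem cells without dividing.

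Embryonic stem cell lines 1, 2, 4, 8 and 11 had been derived from bovine blastocysts of day 7.5, are labelled wild type and were kept on fibroblasts of E13.5 fetuses of CD-1 mice, which had been treated with mitomycin C for 2 hours. Both groups grew in mTeSR1 medium on these feeders. In the control group the medium held 2.5 µM IWR-1, an inhibitor of tankyrases, which protects AXIN from degradation and thereby dampens the Wnt/beta-catenin pathway. In the other group IWR-1 was left out from day 0, and the whole well, stem cells and feeders together, was collected on day 1. Each line gave 1 well per medium, 10 wells in all, so that 5 wells with IWR-1 are compared with 5 wells without it within lines. Each line is a single derivation, and the spread between its 2 wells also holds differences between wells.

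Polyadenylated RNA was sequenced, and reads were counted separately on bovine and on mouse genes. A library held 48064953 to 64345738 recovered bovine reads and 17101894 to 35223039 mouse reads. The share of reads on mouse genes was 30.4% ± 7.57 with IWR-1 and 26.8% ± 8.45 without it (SD, n = 5), lower without IWR-1 in each of the 5 lines. Stem cell markers were present in the bovine table, where 9 of 10 had a name and 8 passed the filter, while DPPA4 stood at 0 to 7.35 normalised reads. Of the hypoblast and endoderm markers, SOX17 and GATA4 stood at 0 to 2.02, GATA6 at 10.1 to 33.4 and FOXA2 at 3.89 to 74.9. FOXA2 was below its IWR-1 well in 4 of 5 lines and was not called (log2 fold change -1.02 ± 0.48, limma adjusted p = 0.523). The trophectoderm markers CDX2, GATA2, GATA3 and ELF5 were below the filter. CDX2 stood at 86.6 in line 4 without IWR-1 and at 0 to 1.19 in every other well. The sum of the 5 markers of that list, nearly all of it the keratin gene KRT18, was 1139 to 8422 with IWR-1 and 2685 to 17771 without it. KRT18 rose in all 5 lines (log2 fold change 0.96 ± 0.08, limma adjusted p = 0.00108), as did the stem cell marker NANOG (0.33 ± 0.06, limma adjusted p = 0.0411). The KRT18 call held whichever line was left out, and that of NANOG in 1 of the 5 such fits. No other marker was called. The log2 fold change was above 0 for 5 of the 8 tested stem cell markers, with a median of 0.03. DNMT3B of that list went down in every line without being called (log2 fold change -0.27 ± 0.07, limma adjusted p = 0.107). The part of the listed markers in the cell cycle values was not tested. Line 4 stood apart: the sum of 15 bovine fibroblast markers was 303270 and 319979 there, against 66180 to 155672 in the other lines, and the sum of 9 stem cell markers was 114614 and 114659 against 125189 to 211633. Some single fibroblast markers were further apart than this sum. COL3A1 stood at 27503 and 29627 in line 4 and at 4.05 to 537 in the other lines. COL1A2 stood at 28291 and 30918 in line 4, against 89.7 to 372. COL6A3 and POSTN were likewise far higher in line 4. VIM was high in every line, at 114746 and 117893 in line 4 and 39381 to 83132 elsewhere. TWIST2 had its highest line mean in line 11. Fibroblast markers could not be checked in the mouse table, whose IDs come without names.

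In the bovine stem cells, none of the 33 cell cycle genes passed the test for a difference between media. Values are normalised reads, read counts divided by a size factor of the library, and tests are those of limma on log2(value + 1) with the line as a block, called at a Benjamini-Hochberg adjusted p under 0.05 over all genes of the table. Of the 33 genes 0 rose and 0 fell, 0 had an unadjusted p under 0.05, and edgeR and DESeq2 on the recovered reads also called 0. Across all 18506 tested bovine genes 0.951% were called. The median log2 fold change (without minus with IWR-1) was 0.0008 over the 33 genes and -0.0046 over all tested genes, and single genes lay between -0.09 and 0.12. The 95% interval of the change lay within 1.25-fold in either direction for 32 of 33 genes, and within 1.5-fold for all 33. The gene outside the narrower bound was MKI67, with an interval of -0.26 to 0.33 on the log2 scale. In a bulk sample, fewer cells of a type and less RNA per cell cannot be told apart.

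**Figure D1:**
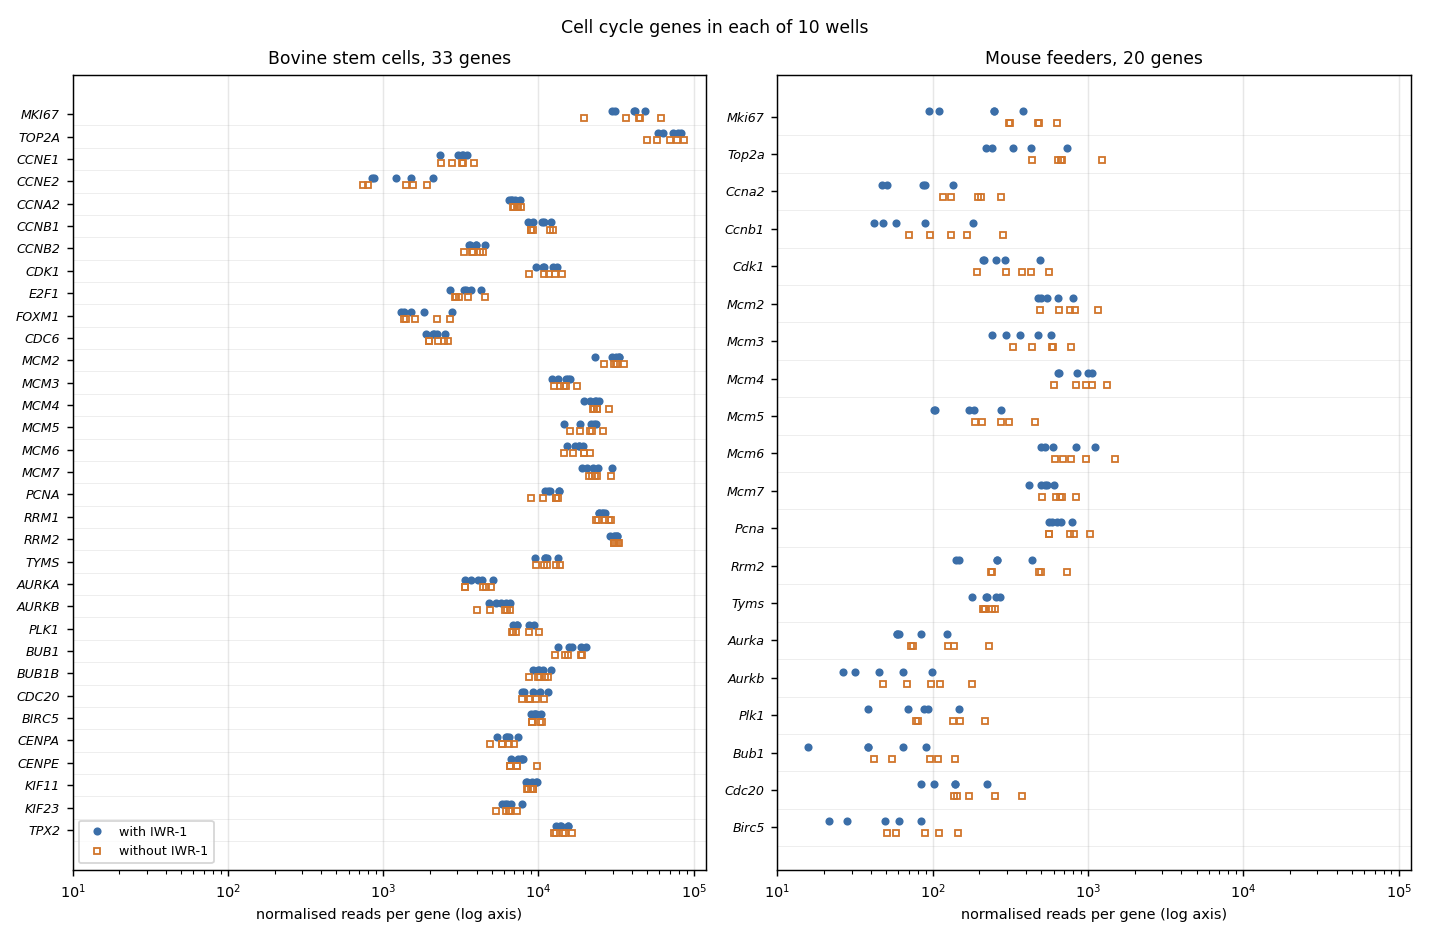
Normalised reads of the 33 bovine genes (left) and 20 mouse genes (right) on a log axis, 1 point per well, with filled circles for the 5 wells with IWR-1 and open squares for the 5 wells without it. The circles and squares of each bovine gene lie over each other, while many mouse genes have their squares to the right of their circles.

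The proliferation marker MKI67, which coats mitotic chromosomes, stood at 31193, 41159, 48208, 29951 and 41993 with IWR-1 and 36787, 61390.3, 44392, 19667 and 44859 without it (lines 1, 2, 4, 8 and 11, in that order throughout). The groups overlapped, as they did for all 33 genes (0.0702% of all tested bovine genes had every well without IWR-1 above every well with it). Line 2 was higher without IWR-1 and line 8 lower. The log2 fold change was 0.04 ± 0.13 (SE), with a limma adjusted p of 0.971. TOP2A, the topoisomerase that untangles replicated chromosomes, stood at 82480.4, 73702, 58873, 78723 and 63175 with IWR-1 and 86064, 78530.1, 50248, 70173 and 58434 without it. Its wells overlapped between media, it was higher without IWR-1 in lines 1 and 2 and lower in the other 3, and its log2 fold change was -0.07 ± 0.07 (limma adjusted p = 0.872).

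Cyclins and the kinase CDK1, which drive the transitions between phases, included no called gene. CCNE1, the cyclin E1 of the G1/S transition, stood at 3268, 3225, 2335, 3476 and 3037 with IWR-1 and 3257, 3204, 2360.3, 3824 and 2784 without it. CCNB1, the mitotic cyclin B1, stood at 12104, 10908, 8613, 10503 and 9187 with IWR-1 and 12353, 9236, 8932, 11806 and 8911 without it. CDK1, the kinase that cyclin B activates, stood at 12320.3, 10778, 9700.5, 13226 and 10859 with IWR-1 and 12738, 11763, 8722, 14152 and 10837 without it. In each of these 3 genes the groups overlapped and the change differed in sign between lines, with log2 fold changes of 0.00 ± 0.06, -0.01 ± 0.06 and 0.02 ± 0.06 (limma adjusted p = 0.997, 0.99 and 0.963). The second E-type cyclin CCNE2 ranged from 742 to 2082 over the 10 wells (log2 fold change -0.03 ± 0.08), the S and G2 phase cyclin CCNA2 from 6482 to 7703 (0.06 ± 0.05) and the second B-type cyclin CCNB2 from 3293 to 4538 (-0.02 ± 0.06). CCNA2 was higher without IWR-1 in 5 of 5 lines, as was MCM4. Over all tested bovine genes 6.20% were higher in 5 of 5 lines.

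Neither transcription factor was called. E2F1, an activator of G1/S genes, stood at 3669, 3306, 4256, 2704 and 3432 with IWR-1 and 3097, 2942, 4529, 2900.1 and 3510.3 without it, with overlapping groups and a log2 fold change of -0.04 ± 0.07 (limma adjusted p = 0.94). FOXM1, an activator of mitotic genes, had the second smallest p of the 33 genes and stood at 1308, 1519, 2784, 1355 and 1821 with IWR-1 and 1372, 1615, 2704, 1406 and 2225 without it. Line 4 was highest in both media and the groups overlapped, with a log2 fold change of 0.09 ± 0.06 (limma adjusted p = 0.76).

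All 7 genes that load or form the replicative helicase had positive log2 fold changes, of 0.03 to 0.12, and none was called. MCM4, the helicase subunit with the smallest p of the 33 genes, stood at 23469, 24501, 23266, 19550.2 and 21479.6 with IWR-1 and 23683, 28681, 23821, 22939.6 and 22619 without it. The well of line 2 without IWR-1 was the highest and the groups overlapped, with a log2 fold change of 0.12 ± 0.06 (limma adjusted p = 0.601). MCM2 stood at 33236, 32911, 31424, 23228 and 29608 with IWR-1 and 31374, 35624, 32256, 26265 and 30762 without it, with line 8 lowest in both media and a log2 fold change of 0.06 ± 0.06 (limma adjusted p = 0.867). The helicase loader CDC6 ranged from 1896 to 2619 (log2 fold change 0.05 ± 0.06), and the helicase subunits MCM3 from 12277 to 17646 (0.03 ± 0.06), MCM5 from 14535 to 26103 (0.04 ± 0.06), MCM6 from 14581 to 21399.5 (0.05 ± 0.06) and MCM7 from 19014 to 29695 (0.05 ± 0.06).

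Among the genes of DNA synthesis, PCNA, the sliding clamp of the DNA polymerases, stood at 13525, 11922, 13539, 11598 and 11038 with IWR-1 and 12906, 8954, 13033, 13335 and 10779 without it. Its lowest well was line 2 without IWR-1, the groups overlapped, and the log2 fold change was -0.07 ± 0.08 (limma adjusted p = 0.874). RRM2, the S-phase subunit of ribonucleotide reductase, stood at 31945, 30628, 31217, 31971 and 28898 with IWR-1 and 31632, 32657, 30669.9, 33044 and 30817 without it. This gene varied least between lines of the 33, with the highest line at 1.09 times the lowest, and its log2 fold change was 0.04 ± 0.06 (limma adjusted p = 0.921). The partner subunit RRM1 ranged from 23559 to 29351 (0.05 ± 0.07) and the thymidylate synthase TYMS from 9559 to 13703 (0.06 ± 0.06).

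Of the genes of mitosis, BIRC5, the survivin subunit of the Aurora B complex, stood at 10424, 8920.4, 9661, 9325 and 9529.5 with IWR-1 and 10469, 9057, 9079.9, 10208 and 9109 without it. Its groups overlapped and its log2 fold change was 0.00 ± 0.05 (limma adjusted p = 0.999). CENPA, the histone variant that marks centromeres, had the third smallest p and stood at 6202, 6313, 7349, 5444 and 6502 with IWR-1 and 5847, 4886, 6989, 5829 and 6465 without it. It was higher without IWR-1 in line 8 and lower in the other 4 lines, with a log2 fold change of -0.09 ± 0.07 (limma adjusted p = 0.797). Among the mitotic kinases, AURKA ranged from 3376 to 5113 (log2 fold change 0.01 ± 0.06), AURKB from 4047 to 6592 (-0.05 ± 0.06) and PLK1 from 6768 to 10149 (-0.00 ± 0.06). The spindle checkpoint genes BUB1 and BUB1B ranged from 12821 to 20340.1 (-0.06 ± 0.05) and from 8632 to 12003 (-0.02 ± 0.06). CDC20, the activator of the anaphase-promoting complex, ranged from 7861 to 11594 (-0.03 ± 0.06). The kinetochore motor CENPE ranged from 6572 to 9765 (-0.02 ± 0.09), and the spindle genes KIF11, KIF23 and TPX2 from 8283 to 9797, 5331 to 7873 and 12539 to 16351, with log2 fold changes of -0.03 ± 0.06, -0.04 ± 0.06 and -0.02 ± 0.06. All 5 centromere and spindle genes had negative log2 fold changes, none of them called.

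Read by phase, 11 of the 14 G1/S genes had a positive log2 fold change (median 0.05), against 6 of the 19 G2/M genes (median -0.02). The difference between the phases was given no test. Summed over the 33 genes, the set took 0.749% to 0.809% of the bovine reads with IWR-1 and 0.755% to 0.815% without it, and its sum was higher without IWR-1 in 3 of 5 lines.

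**Figure D2:**
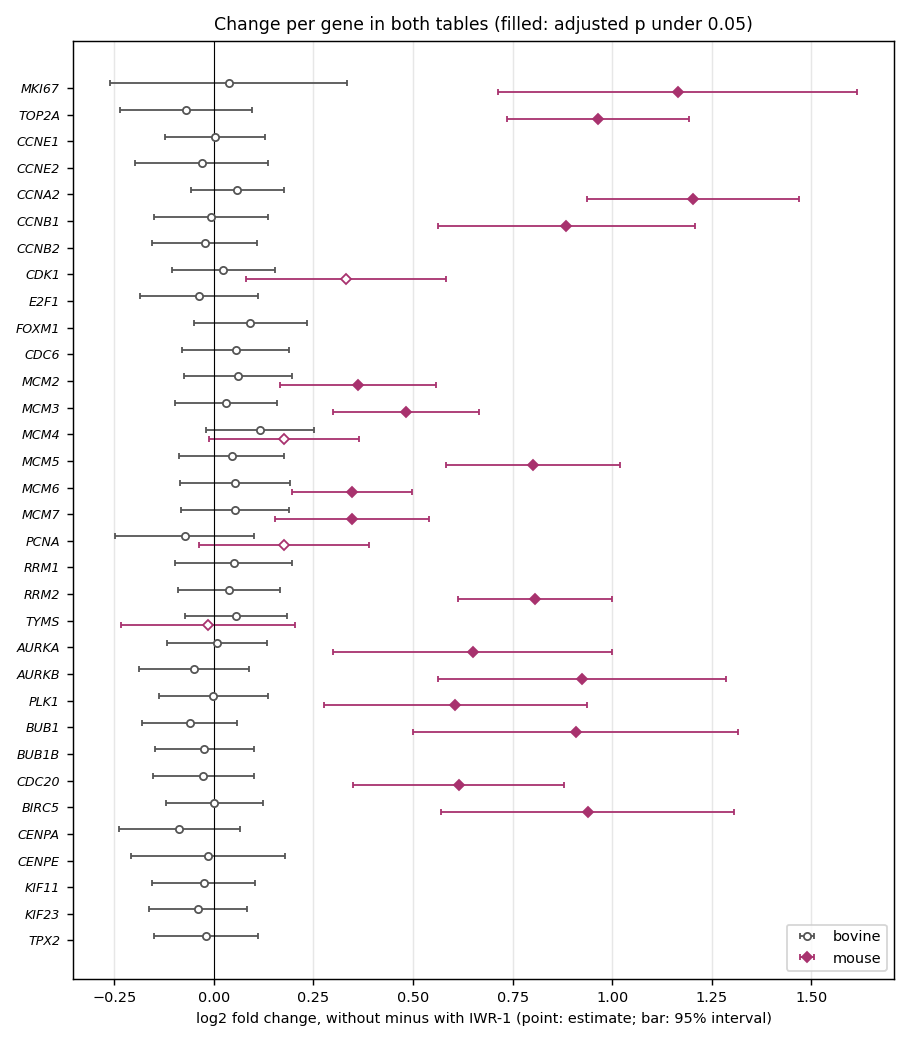
Log2 fold change without minus with IWR-1 for each gene, with its 95% interval, in the bovine table (grey circles, 33 genes) and the mouse table (purple diamonds, 20 genes). Filled symbols mark a limma adjusted p under 0.05: 16 mouse genes and no bovine gene are filled.

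The lines differed more than the media, in the 33 bovine genes as over all tested bovine genes. Of the 33 bovine genes, 23 differed between the 5 lines by limma's F-test of the line terms at an adjusted p under 0.05, against 66.5% of all tested genes. Without line 4, 15 of the 33 were called. The 66.5% belongs to the fit with all lines. For the fit without line 4, which has fewer degrees of freedom, no share over all genes is given. Of the variation of log values of the 33 genes, as a sum of squares, 89.2% lay between lines and 1.34% between media, where the shares over all tested genes were 85.9% and 3.64%. CCNE2 differed most by p, with line 4 highest, line 2 lowest and a 2.48-fold range between line means (limma adjusted p = 1.72e-05). FOXM1 followed, with a 2.05-fold range between line 4 and line 1 (limma adjusted p = 4.04e-05). MCM5 ranged 1.62-fold between line 2 and line 8 (limma adjusted p = 0.00066), and BUB1 1.51-fold between line 8 and line 4 (limma adjusted p = 0.000792). Of the 10 genes that did not pass this test, RRM2 had the largest limma adjusted p (0.737), followed by KIF11 (0.427) and RRM1 (0.38).

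No line was high or low for the whole set. Line 4, the line with high bovine fibroblast markers, ranked top among the lines in both media for CCNE2, E2F1, FOXM1 and CENPA, 4 of 33 genes, against 19.1% of all tested genes. It ranked bottom in both for 9, TOP2A, CCNE1, CDK1, MCM6, TYMS, AURKA, BUB1, BUB1B and KIF23, against 18.4% of all genes. Line 1 was highest in both media for 9 genes, of which 7 are of the G2/M group (TOP2A, CCNA2, CCNB1, AURKA, CDC20, BIRC5 and TPX2), against 12.2% of all genes. Line 8 was lowest for MKI67, E2F1, MCM2, MCM3 and MCM5 (10.9% of all genes) and highest for CCNE1, CDK1, RRM2, BUB1 and KIF23 (8.82% of all genes). The part of the fibroblast markers of line 4 in its cell cycle values was not tested.

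Other cell cycle genes were read from a list of 93 bovine genes, all of which had a name in the table. Of these, 91 passed the filter, 1 rose and 0 fell, and the log2 fold change was above 0 for 45 (median -9.86e-05). Over all 18506 tested bovine genes 164 rose and 12 fell, and the log2 fold change was above 0 for 8949 (median -0.0046). The gene of the list that rose was CCND1, encoding cyclin D1, the G1 cyclin that partners CDK4 and CDK6. It stood at 753, 772, 3814, 501 and 654 with IWR-1 and 1709.5, 1869.7, 5399, 1155 and 1961 without it. The wells without IWR-1 were higher in every line, although line 4 with IWR-1 lay above the other lines without it, and the log2 fold change was 1.15 ± 0.12 (limma adjusted p = 0.0027). Its kinase CDK6 had a log2 fold change of 0.47 ± 0.11 (limma adjusted p = 0.0884) and CCND2, cyclin D2, one of 0.21 ± 0.07 (0.336). CDK6 was called by DESeq2 and by limma without line 8. The polymerase gene POLD1 had 0.12 ± 0.06, the phosphatase gene CDC25C 0.13 ± 0.07 and the CDK inhibitor gene CDKN2C -0.57 ± 0.31. The CDK inhibitors CDKN1A (p21) and CDKN1B (p27) had 0.01 ± 0.07 (limma adjusted p = 0.99) and 0.10 ± 0.06 (0.728). CDKN2A and CDKN2B, inhibitors of CDK4 and CDK6, were below the filter, at 0 to 23.1 and 0 to 72 normalised reads.

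In the mouse table, 16 of the 20 cell cycle genes rose without IWR-1 and 0 fell. Across all 15871 tested mouse genes 2.14% rose and 2.05% fell. The median log2 fold change was 0.63 over the 20 genes and -0.00041 over all tested mouse genes. Of the 20 genes 15 were higher without IWR-1 in 5 of 5 lines, against 7.83% of all tested genes. The 5 others were Cdk1, Mcm2, Mcm4, Pcna and Tyms, of which Mcm2 was called. Summed over the 20 genes, the set took 0.0270% ± 0.0077 of the mouse reads with IWR-1 and 0.0379% ± 0.0124 without it (SD, n = 5), and its sum was 1.32 to 1.48 times higher without IWR-1 in the 5 lines. For each of the 20 genes the groups of wells overlapped; 0.258% of all tested mouse genes had every well without IWR-1 above every well with it. The pairing by line carries these calls: in a fit without the replicate block limma called 0 of the 20 genes, with 7 at an unadjusted p under 0.05. With the share of mouse reads added as a term it called 0 of the 20 and 0 of all mouse genes, the median log2 fold change of the 20 genes was 0.69, and 10 had an unadjusted p under 0.05.

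The proliferation genes had among the largest changes. Mki67 stood at 94.6, 110.1, 247, 248 and 384 with IWR-1 and 308, 477, 482, 316 and 632 without it. Its wells without IWR-1 were higher in every line, least so in line 8, with a log2 fold change of 1.16 ± 0.21 (limma adjusted p = 0.00782). Top2a stood at 222, 242, 329.6, 427 and 728 with IWR-1 and 436, 642, 673, 677 and 1230.4 without it. Line 11 was highest in both media, and the log2 fold change was 0.96 ± 0.10 (limma adjusted p = 0.000591). The call for Mki67 was lost without line 1 (log2 fold change 0.93 to 1.37 with any 1 line left out), whereas Top2a was called whichever line was left out.

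Of the cyclin and kinase genes, Ccna2 had the largest change of the 20 and stood at 47.3, 51.1, 86.8, 88.6 and 135 with IWR-1 and 116, 131, 196, 205 and 276 without it. The log2 change within lines ran from 1.03 in line 11 to 1.35 in line 2, and the log2 fold change was 1.20 ± 0.12 (limma adjusted p = 0.000467). Ccnb1 stood at 41.7, 48.2, 88.6, 57.7 and 181 with IWR-1 and 95.99, 70.6, 166, 131 and 282 without it. It was higher without IWR-1 in every line, with a log2 fold change of 0.89 ± 0.15 (limma adjusted p = 0.00569). Both were called in each fit that leaves out 1 line. Cdk1 stood at 213, 212, 255, 292 and 489.9 with IWR-1 and 298, 192, 377, 428 and 564 without it. Line 2 alone was lower without IWR-1 and the other 4 lines were higher, and the log2 fold change of 0.33 ± 0.11 was not called (limma adjusted p = 0.151).

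**Figure D3:**
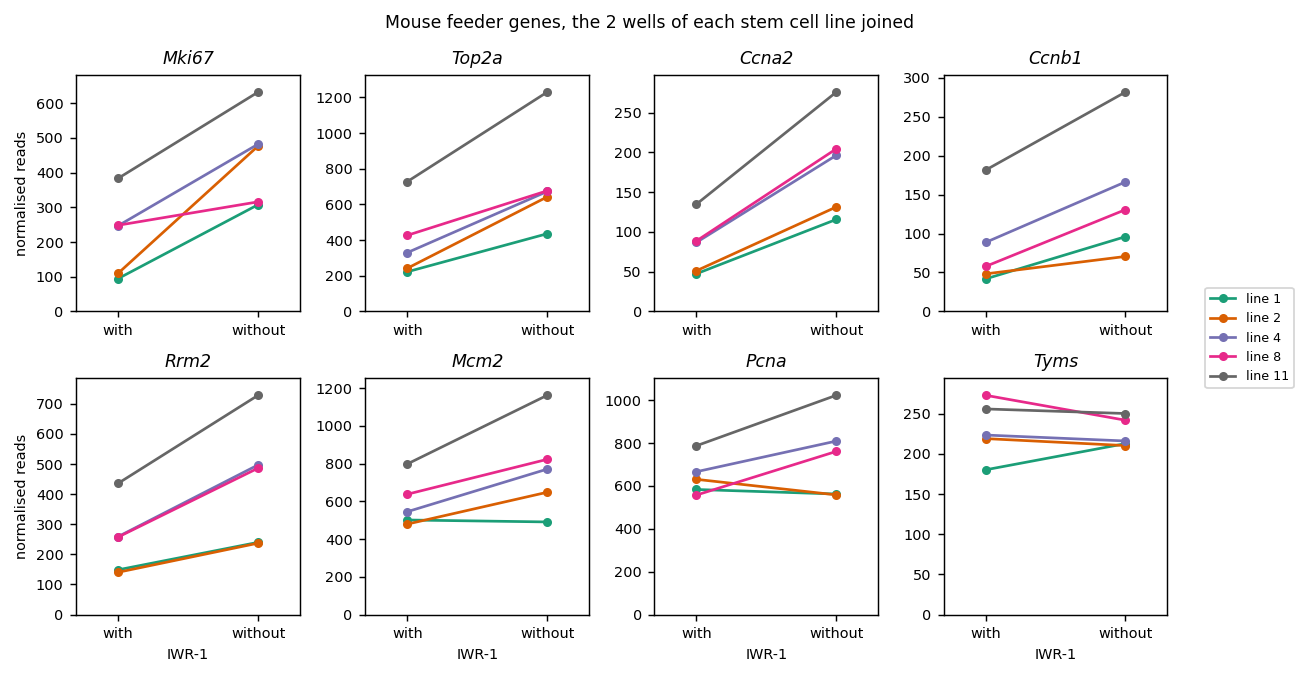
Normalised reads of 8 mouse genes in the feeders, with the well with IWR-1 joined to the well without it for each of the 5 lines; each vertical axis starts at 0. Mki67, Top2a, Ccna2, Ccnb1 and Rrm2 climb in all 5 lines, while Pcna and Tyms have lines in both directions, and line 11 is the top line of every panel but Tyms.

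Of the 6 helicase genes 5 rose, with a median log2 fold change of 0.35 over the 6. Mcm5 stood at 104, 102, 184, 171 and 276 with IWR-1 and 207, 186, 308, 277 and 457 without it. It was higher without IWR-1 in every line, with a log2 fold change of 0.80 ± 0.10 (limma adjusted p = 0.00123), and was called in each fit that leaves out 1 line. Mcm3 stood at 242, 296, 366, 476 and 581 with IWR-1 and 331, 436, 594, 587 and 773 without it, higher without IWR-1 in every line (log2 fold change 0.48 ± 0.08, limma adjusted p = 0.00716, call lost without line 4). Mcm6 stood at 495, 529.7, 591, 839 and 1108 with IWR-1 and 609, 693, 779.5, 971 and 1501 without it. It too was higher in every line, with line 11 highest (log2 fold change 0.35 ± 0.07, limma adjusted p = 0.0156). Mcm7 stood at 417, 498, 542, 529 and 606 with IWR-1 and 626, 506, 685, 664 and 836 without it. The wells of line 2 were nearly level and those of the other lines higher without IWR-1 (log2 fold change 0.35 ± 0.09, limma adjusted p = 0.0496). Mcm2 stood at 501, 479.6, 545, 638 and 798 with IWR-1 and 491, 648, 771, 823 and 1163 without it. Line 1 was slightly lower without IWR-1 and the other 4 lines higher (log2 fold change 0.36 ± 0.09, limma adjusted p = 0.0451). Mcm4 ranged from 605 to 1329, lower without IWR-1 in lines 1 and 8, and was not called (log2 fold change 0.18 ± 0.09, limma adjusted p = 0.349). The calls were lost for Mcm6 without line 1, 4 or 11, for Mcm7 without line 1, 4, 8 or 11, and for Mcm2 without line 2, 4, 8 or 11.

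Of the 3 genes of DNA synthesis 1 rose. Rrm2 stood at 149, 141, 259, 258 and 436 with IWR-1 and 240.0, 237, 497, 487 and 729 without it. It was higher without IWR-1 in every line, with a log2 fold change of 0.81 ± 0.09 (limma adjusted p = 0.000629), and was called in each fit that leaves out 1 line. Pcna stood at 584, 631, 667, 558 and 788 with IWR-1 and 562, 558, 809.5, 761 and 1023 without it, lower without IWR-1 in lines 1 and 2 and higher in the other 3, and was not called (log2 fold change 0.18 ± 0.10, limma adjusted p = 0.433). Tyms ranged from 180.2 to 273 and had its lower well without IWR-1 in lines 2, 4, 8 and 11 (log2 fold change -0.01 ± 0.10, limma adjusted p = 0.972). The 95% interval of its change was -0.23 to 0.20, against 0.61 to 1.00 for Rrm2.

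All 6 kinase, checkpoint and survivin genes of mitosis rose. Aurka stood at 58.6, 58.96, 83.8, 60.8 and 124 with IWR-1 and 72.6, 74.2, 126, 137 and 229.8 without it, and Aurkb at 31.5, 26.5, 64.5, 45.3 and 98.99 with IWR-1 and 47.99, 68.1, 112, 96.8 and 178 without it. Both Aurora kinases were higher without IWR-1 in every line, by 0.65 ± 0.16 and 0.92 ± 0.17 on the log2 scale (limma adjusted p = 0.0443 and 0.0085). Plk1 stood at 38.3, 69.8, 87.98, 92.8 and 148 with IWR-1 and 79.99, 77.9, 149, 136 and 216 without it. This kinase of mitotic entry was higher in every line, from little in line 2 to most in line 1 (log2 fold change 0.61 ± 0.15, limma adjusted p = 0.0465). Bub1 stood at 15.8, 38.3, 38.6, 63.9 and 90.4 with IWR-1 and 41.8, 54.7, 96.7, 109 and 139 without it. Its counts were the lowest of the set, down to 14 recovered reads in line 1 with IWR-1, and its log2 fold change was 0.91 ± 0.19 (limma adjusted p = 0.0181). Cdc20 stood at 139.7, 101, 139, 84.5 and 225 with IWR-1 and 171, 137, 252, 143 and 375 without it, and Birc5 at 28.2, 21.6, 60.3, 49.5 and 84.6 with IWR-1 and 57.8, 51.1, 88.9, 110.1 and 146 without it. Both were higher without IWR-1 in every line, by 0.62 ± 0.12 and 0.94 ± 0.17 on the log2 scale (limma adjusted p = 0.0146 and 0.0086). Birc5 was called in each fit that leaves out 1 line. The calls were lost for Aurkb without line 11, for Cdc20 without line 4 or 11, for Bub1 without line 1, 4 or 11, and for Aurka and Plk1 without line 1, 4, 8 or 11.

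By phase, 10 of the 11 mouse G2/M genes rose (median log2 fold change 0.91), and 6 of the 9 G1/S genes (median 0.35). The difference between these medians was given no test. The sum of the G2/M genes was 1.59 to 2.02 times higher without IWR-1 in the 5 lines, and that of the G1/S genes 1.17 to 1.36 times. Leaving out line 1 left 10 of the 20 genes called, line 2 left 16, line 8 left 12, and lines 4 and 11 left 8 each. Of all 15871 tested mouse genes, 340 rose in the fit with all lines. In the fits that leave out line 1, 2, 8, 4 or 11, 156, 351, 477, 137 and 136 rose, in that order. Without line 2, Cdk1 was called and Mcm2 was not.

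The feeders under different stem cell lines also differed. Between lines, 18 of the 20 mouse genes passed limma's F-test of the line terms at an adjusted p under 0.05, against 35.1% of all tested mouse genes; the others were Mcm7 and Tyms. Line 11 ranked top in both media for 19 of the 20 genes, all but Tyms, against 12.1% of all tested mouse genes. Line 1 was lowest in both media for 7 genes (Mki67, Top2a, Ccna2, Mcm3, Mcm6, Aurka and Bub1), against 8.07% of all tested mouse genes, and line 2 for 4 (Cdk1, Mcm5, Rrm2 and Birc5), against 6.64%. Rrm2 showed a 3.08-fold range between line means (limma adjusted p = 1.06e-05), Mcm6 a 2.36-fold range (1.98e-05) and Top2a a 2.98-fold range (0.000133). Among the bovine genes, line 11 was highest in both media for CDC6 and AURKB, 2 of 33, against 10.0% of all tested bovine genes. The mouse share of line 11 was 33.3% with IWR-1 and 26.6% without it, above lines 1, 2 and 8 and below line 4 in both media.

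**Figure D4:**
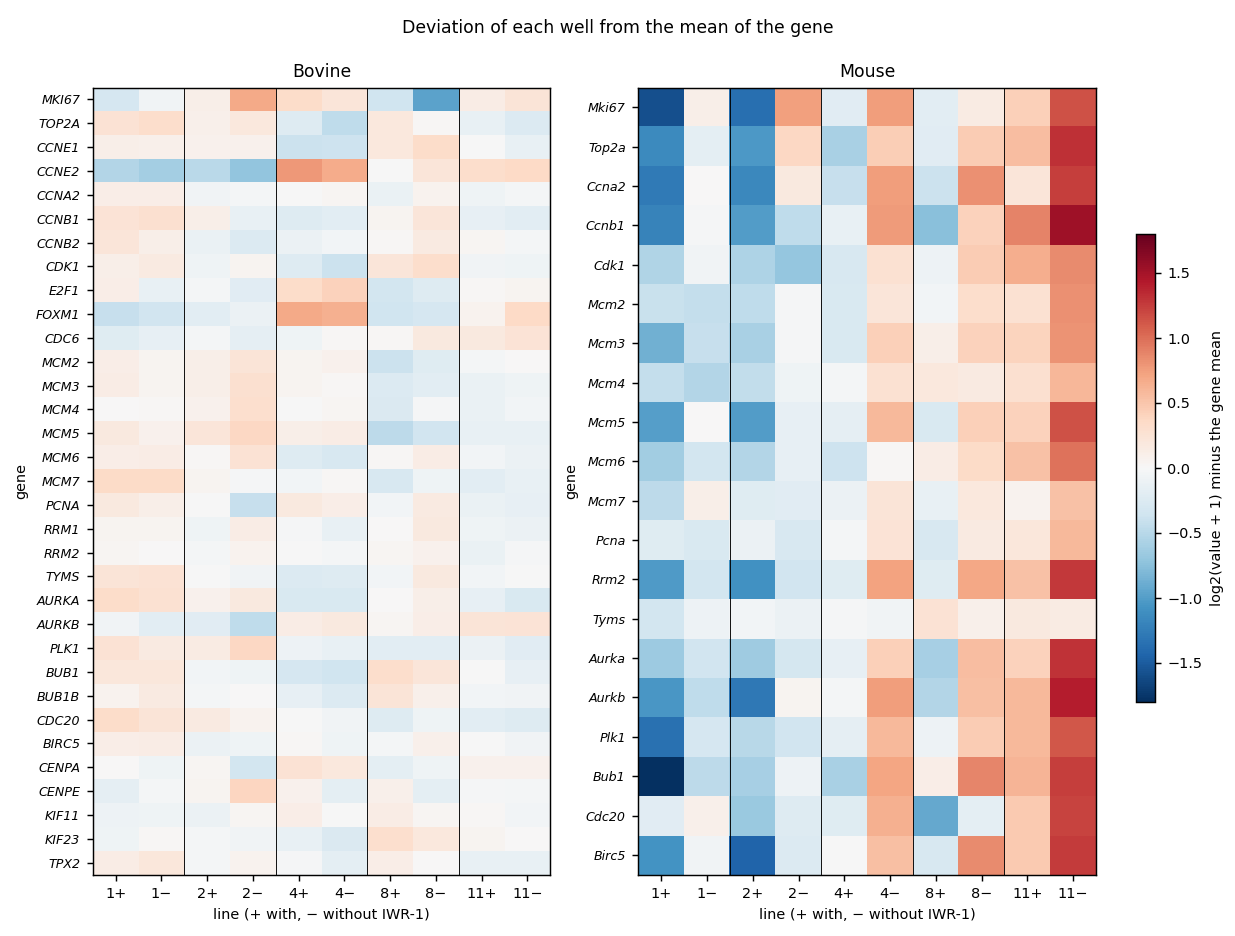
Deviation of log2(value + 1) from the mean of the gene in each of the 10 wells, for the 33 bovine genes (left) and 20 mouse genes (right), with the wells of a line side by side (+ with and − without IWR-1). Bovine columns differ by line with no common direction, while in the mouse panel most genes turn redder from + to − within a line and line 11 is the reddest.

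Levels were then set side by side between the stem cells and the feeders. These tables were normalised separately, so the comparison uses the share of a gene in the reads of its own species, without a test, and gene models of the 2 species can differ in length. Each of the 20 genes was higher in the bovine than in the mouse compartment in all 10 wells, from 3.86 times (Pcna) to 409 times (Bub1). The median ratio over the 20 genes was 16.9 to 42.4 in the wells with IWR-1 and 10.6 to 22.6 without it, lower without IWR-1 in each line. By gene, the median ratio over the 5 wells was 128 with IWR-1 and 64.1 without it for Bub1, 72.4 and 33.8 for Mki67, and 70.1 and 32.99 for Ccnb1. It was 10.2 and 8.58 for Mcm4 and 7.54 and 5.91 for Pcna. Tyms went the other way, with 15.9 with IWR-1 and 18.3 without it, and the other 19 genes had the lower median without IWR-1. The same 20 genes took 0.593% to 0.659% of the bovine reads and 0.0200% to 0.0568% of the mouse reads. Ranked among the genes with a read in the same library, they lay between the 81.5th and 99.9th percentile in the bovine compartment and between the 35.6th and 86.2nd in the mouse compartment. In both media the mouse table thus held a smaller share of these transcripts than the bovine table, and none of the 20 genes was without reads in any well.

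The sources used here do not say what was done with reads that fit both genomes, so the reads on each mouse gene were also set against those on its bovine counterpart in the same well. For Mki67, mouse reads per 1000 bovine reads were 2.73, 2.86, 10.1, 7.45 and 12.4 with IWR-1 and 6.70, 6.66, 20.9, 12.03 and 13.97 without it. For Pcna they were 38.8, 56.6, 97.2, 43.2 and 96.6 with IWR-1 and 34.9, 53.5, 119, 42.8 and 94.1 without it. The first gene was higher without IWR-1 in 5 of 5 lines and the second in 1 of 5. For 10 of the 20 genes the ratio was higher without IWR-1 in 5 of 5 lines, and over all genes and wells it lay between 0.749 and 119. The count of 10 comes without a share over other gene pairs. Taken over whole libraries, mouse reads per bovine read changed 0.728- to 0.963-fold from the well with IWR-1 to its partner. Scaled by the size factors of the mouse table, the bovine reads of the same genes were higher without IWR-1 by a median of 0.27 on the log2 scale (0.17 to 0.36 over genes), where the mouse genes had a median of 0.63. These values are means over the 5 lines. In single lines the scaled bovine change ran from -0.34 to 0.90 for MKI67 and from -0.02 to 0.56 for MCM6. Gene by gene, the mouse change was above the mean value of its own bovine counterpart for 18 of 20 genes, all but Mcm4 and Tyms. The margin was smaller than the SE of the mouse change for Cdk1, Mcm2, Mcm6, Mcm7 and Pcna, the last with 0.18 against 0.17. The count of 18 likewise comes without a share over other gene pairs. The part of reads of bovine origin in the mouse values was not tested.

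**Figure D5:**
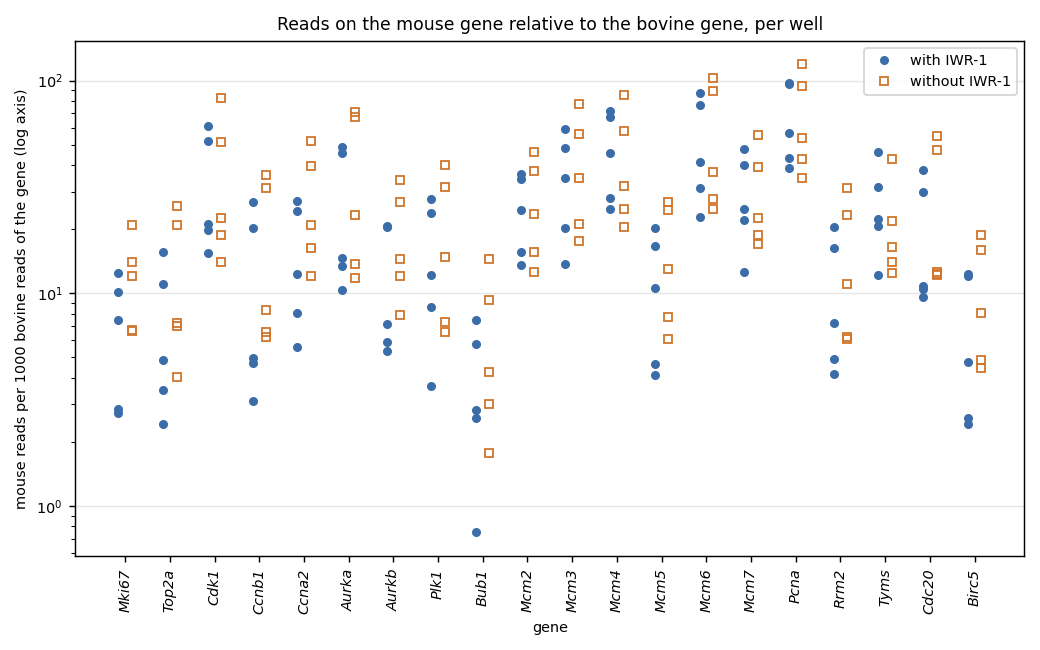
Reads on each mouse gene per 1000 reads on the bovine gene of the same name, 1 point per well on a log axis, with circles for the 5 wells with IWR-1 and squares for the 5 wells without it. The ratio differs between genes, from below 1 for Bub1 in 1 well to 119 for Pcna in another.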

How the data were processed

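RNA was sequenced from 10 wells of bovine embryonic stem cells on mouse feeders. Tools listed in the submitters' processing notes, with no role given, are featureCounts 1.5.0-p3, StringTie 1.3.3b, HISAT2 2.0.5 and fastp. The files deposited by the authors are a bovine and a mouse table of gene signal, already scaled per library. In every library 100% of the positive deposited signal values were whole multiples of 1 step, at a tolerance of 0.01 reads, which gave the recovered reads; no label records this scaling. Per the labels' protocols, reads were mapped to ARS-UCD1.3 and GRCm39.

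Bovine symbols came from a RefSeq table of another assembly, ARS-UCD2.0 (24660 of 27590 IDs matched), so no coordinates are given. None of the 31349 mouse IDs matched a name there, and the 20 mouse names come from the membership rule. Another 2 mouse columns carry no sample label and were left out.

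Genes reaching 10 in 5 or more libraries were tested in each whole table with limma 3.58.1 (R 4.3.3, intensity trend) on log2(value + 1), with line and medium as terms, and Benjamini-Hochberg adjustment. Fold changes on this scale understate those of low genes. Both wells of a number come from the same line, per the labels; their deviations from group means correlated at 0.617 to 0.883 (bovine) and 0.488 to 0.725 (mouse). With 1 well per line and medium, p-values measure the spread of the change between lines. Alternatives were no block, pseudocounts 0.5 and 5, no filter or a filter at 50, edgeR 4.0.16 and DESeq2 1.42.0 on recovered reads, scaling by total reads, the mouse share as a covariate, and leaving out each line. The fit was tested on simulated data. The members and lists were chosen with earlier results of these data known. The rule for named genes gave every member its range and change, and the value in every well to a set of 10 bovine and 8 mouse genes, to called members and to the 3 with the smallest p per table. Of the other cell cycle genes it named the called ones, the 6 with the smallest p, and always CCND1, CDKN1A and CDKN1B.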

Additional observations from a re-analysis of the deposited data

Results flagged for a closer look

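In 3 of 106 groups of 5 wells of 1 gene and medium, a single well lay far from the other 4; chance gives about 1 in 20 such groups. Bovine MCM4, a helicase subunit, stood at 28681 normalised reads in line 2 without IWR-1, against 22619 to 23821 in the other lines. Bovine CENPE, the kinetochore motor, stood at 9765 in line 2 without IWR-1, against 6572 to 7265. Mouse Cdk1 stood at 489.9 normalised reads in line 11 with IWR-1, against 212 to 292. Line 2 without IWR-1 also held the highest bovine MKI67 value (61390). Line 11 was the highest line in both media for 19 of the 20 mouse genes.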

How the results depend on the processing

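Of the 33 bovine genes none was called in any of the 14 alternatives, and 44 of the 462 values changed sign, all uncalled. Of 280 mouse values 211 kept their side of the threshold, 68 calls were lost, 1 was gained (Cdk1 without line 2) and 2 changed sign, both of Tyms. Without the replicate block, limma called 0 of the 20 mouse members against 16, 0 mouse genes against 665, 0 bovine genes against 176, and 0 of the other cell cycle genes against 1. With the mouse share as a covariate these counts were 0, 0, 0 and 0, in a fit that separates the share poorly from the medium. Without the filter 53 bovine and 329 mouse genes were called, and the calls of Mcm2, Mcm7, Aurka, Plk1 and Bub1 were lost. Scaling by total reads lost the calls of Mcm7, Aurka and Plk1, and a pseudocount of 0.5 that of Mcm7. DESeq2 called 422 bovine genes and 2 other cell cycle genes (CCND1 and CDK6). Leaving out 1 line gave 31 to 184 bovine genes, 269 to 936 mouse genes, 8 to 16 mouse members, 1 to 2 other cell cycle genes, 15 to 25 bovine members that differ between lines (fewest without line 4) and 3673 to 6413 mouse genes that do (fewest without line 11). Fits without 1 line also have fewer degrees of freedom, and the cause of these changes was not tested. For the bovine members that differ between lines, no share over all genes of the same fits is given. The median bovine to mouse ratio was 22.2 in shares of reads and 64.5 in deposited values, whose tables have different scales. The planned search of promoters for E2F and CHR motifs was not run, since no promoter sequence was used here. Counting error is large for the lowest mouse values, such as Bub1 with 14 reads in 1 well.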
